A study of Mus musculus with 12 samples.

Results

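The lungs described here came from the eosinophilic model of house dust mite (HDM) allergy, sensitised with alum, and were set against lungs of mice given phosphate-buffered saline (PBS). Mice 7, 8 and 9 formed this group, 3 of the 12 Balb/c mice in the study, and they were chosen by the title of each sample and not by any measured value. Control mice 1, 2 and 3 were the mice they were compared with. Each mouse gave 1 whole-lung RNA sample and 1 Affymetrix mouse Gene 1.0 ST array, and the deposited level of a gene is the log2 of its normalised intensity. The other 6 mice formed the mixed and the neutrophilic models, 3 mice each.

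Eosinophilic mice were injected into the peritoneum 3 times, on days 0, 7 and 21, with HDM extract holding 0.75 DU (development units) each of the mite allergens Der f and Der p on 1.5 mg of aluminium hydroxide (alum). Intranasal challenge at that dose followed on days 26 to 28. Mixed mice took the same dose by the nose alone, once a week and 4 times in all. Neutrophilic mice took 7.5 DU of each allergen on that weekly schedule. Control mice took PBS by the nose alone, with no allergen, alum or injection, so that effects of allergen, adjuvant, route and schedule cannot be told apart in the comparison with PBS. Age and sex were not given in the sources used here. Each mouse carried its own number in the labels, which do not say whether mice shared a cage or a day of work.

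In allergic airway inflammation of type 2, the cytokines IL-4 and IL-13 act through their shared receptor and the transcription factor Stat6. Airway epithelium then turns to mucus secretion, macrophages take on an alternatively activated state with arginase and chitinase-like proteins, and chemokines draw in eosinophils, monocytes and helper T cells. IL-5 and the eotaxins govern eosinophils themselves, whose granules hold a peroxidase, a major basic protein and ribonucleases. Whole-lung RNA sums all these cells, so that fewer cells of a type and less RNA per cell cannot be told apart.

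One array, that of eosinophilic mouse 7, had a narrow range. Over all probe sets its log2 values spread with an SD of 0.995, against 1.77 to 2.04 on 9 arrays, and the median profile of the remaining mice correlated with it at 0.356, against 0.956 to 0.980 on those 9. Eosinophilic mouse 9 and neutrophilic mouse 23 lay between, with SDs of 1.52 and 1.51. Lung markers were read low on mouse 7. The surfactant gene Sftpb, a mark of alveolar type 2 cells, measured 11.86 and 11.89 in eosinophilic mice 8 and 9 and 6.92 in mouse 7, against 12.57, 12.67 and 12.45 in controls. Cyp2f2, the cytochrome P450 of club cells, measured 11.83 and 12 in eosinophilic mice 8 and 9 and 5.82 in mouse 7, against 14.05, 14.08 and 13.29 in controls. On mouse 7 both lay within 1.5 of its median of 5.50, while both were above 11 on mice 8 and 9.

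**Figure D1:**
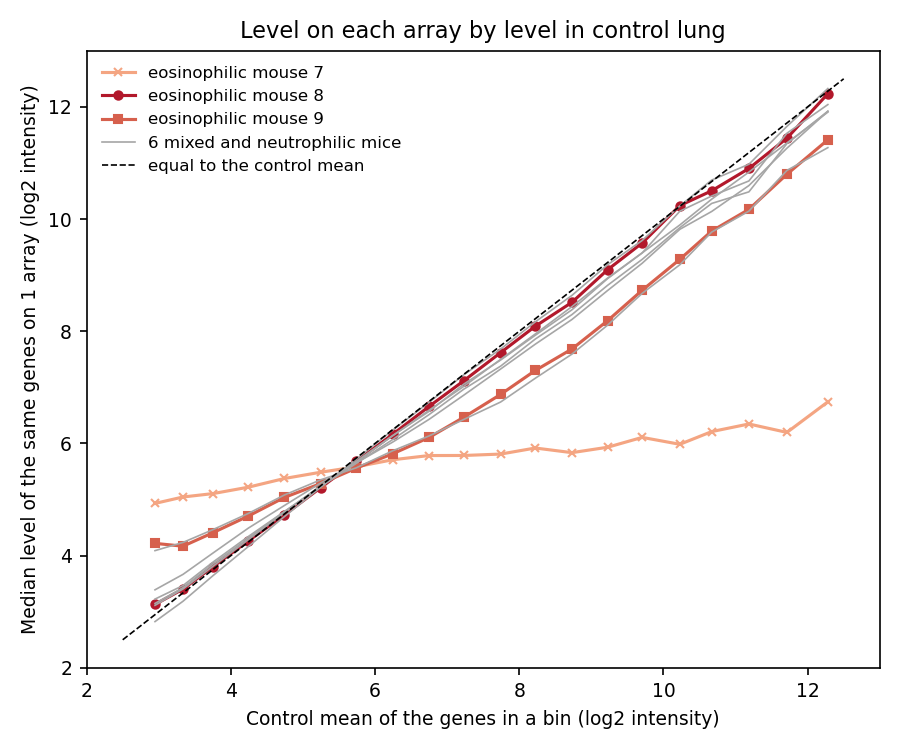
Each line gives the median level on 1 array (vertical axis, log2 intensity) of genes binned by their control mean (horizontal axis, log2 intensity, bins of 0.5 with at least 20 genes). Genes with a control mean of 12 to 12.5 had a median of 12.23 on mouse 8, 11.41 on mouse 9 and 6.74 on mouse 7, while genes with a control mean of 3 to 3.5 had 3.40, 4.17 and 5.05 on the same arrays.

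The plot of level on each array shows that bright genes were read low and dim genes high on mouse 7, and to a lesser degree on mouse 9. Over all genes the change from the control mean had a slope on that mean of -0.831 for mouse 7, -0.338 for mouse 9 and -0.0453 for mouse 8. The mixed, neutrophilic and control arrays ran between -0.360 and 0.0622. Results are therefore given first without mouse 7, from a fit of 11 arrays with 2 eosinophilic mice, and then with all 12 arrays. Genes with a control mean of 4 to 4.5 had a median of 5.22 on mouse 7, and those with 8 to 8.5 had 5.92. Its narrow range can thus place mouse 7 above dim controls or below bright ones, and such positions below carry little weight. Precision is limited by the number of arrays.

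Without mouse 7, 266 of 19937 genes differed between eosinophilic and control lung (limma, Benjamini-Hochberg adjusted p under 0.05 over all genes), which is 1.33% of those tested. Of these, 90 rose (0.451%) and 176 fell (0.883%), each by at least 2-fold. With 12 arrays 15 rose (0.0752%) and 84 fell (0.421%), 0.497% in all, and every one of these 99 was also among the 266 in the same direction. With 12 arrays, leaving out mouse 9 or any control mouse left 0 rises and 1 fall, so that the calls with 12 arrays held by a small margin. Without mouse 7, leaving out mouse 8 gave 1276 rises and 2129 falls and leaving out mouse 9 gave 81 and 17. Leaving out control mouse 1, 2 or 3 gave 27, 28 and 44 rises and 6, 9 and 70 falls. The calls that passed in all 5 of these further fits numbered 24 rises and 6 falls, 0.15% of genes, with 0.12% for the rises and 0.0301% for the falls. Rnase2a, Clca1, Ccl8, Retnla, Saa3, Arg1, Timp1 and Slc26a4 headed the 24 rises. The 6 falls were Lrat, Pon1, Glp1r, Clec14a, Nbeal1 and Ecm2.

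**Figure D2:**
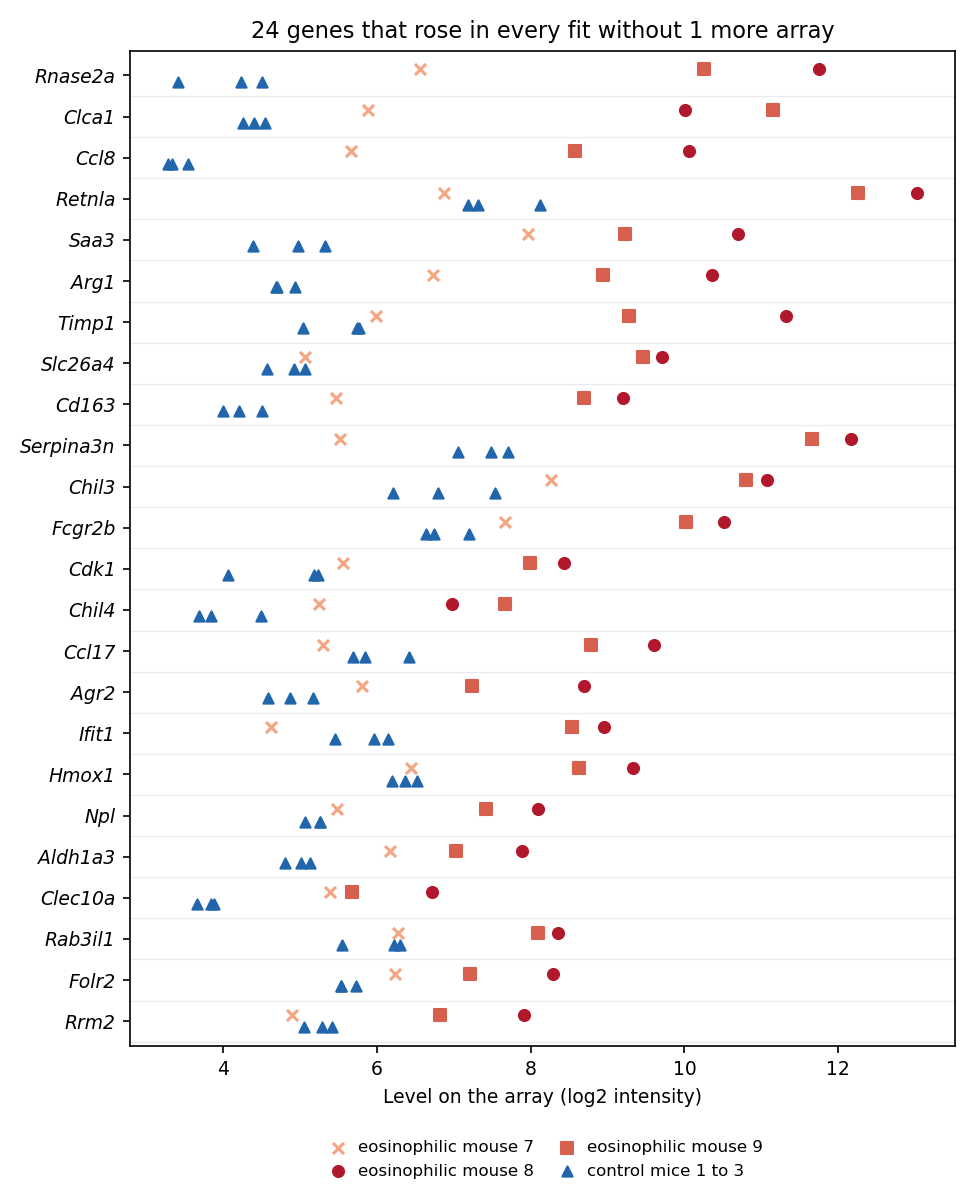
Levels (horizontal axis, log2 intensity) of the 24 genes that rose without mouse 7 and in each of the 5 fits that left out 1 more array, with 1 symbol for each eosinophilic mouse above the 3 control mice of the same gene. Mice 8 and 9 lie above all controls in each row, and mouse 7 lies among or below the controls for some genes, for example Retnla, Serpina3n and Ifit1.

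The label of the model was checked against 11 measured genes of the eosinophil list, and 1 of them, Rnase2a, rose, beside 0.451% of all genes. Rnase2a belongs to the eosinophil-associated ribonucleases, a mouse family of close copies. Whether its probes read other copies, and which lung cells held its RNA, was not tested. It measured 11.76 and 10.25 in eosinophilic mice 8 and 9 and 6.56 in mouse 7, against 3.42, 4.24 and 4.51 in controls. All 3 eosinophilic mice lay above all controls. The rise was 123-fold (log2 6.95, SE 0.49, adjusted p = 6.3e-06), the largest of any gene in this fit, and with 12 arrays it was log2 5.47 (adjusted p = 0.0462). Without mouse 7 it passed whichever further array was left out, with a highest adjusted p of 9.17e-05 without eosinophilic mouse 8.

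The genes of the peroxidase and the major basic protein did not pass. Epx, the eosinophil peroxidase, measured 4.97 and 5.31 in eosinophilic mice 8 and 9 and 5.62 in mouse 7, against 4.21, 4.20 and 4.21 in controls. Its 3 eosinophilic values lay above the controls but were all low, and the log2 difference of 0.94 (95% interval 0.29 to 1.59) had an adjusted p of 0.15. Prg2, the major basic protein, measured 5.41 and 4.40 in eosinophilic mice 8 and 9 and 4.97 in mouse 7, against 4.33, 4.04 and 4.45 in controls. The groups overlapped, with a difference of 0.64 (interval -0.28 to 1.55, adjusted p = 0.459). Il5ra, the IL-5 receptor chain of eosinophils, differed by 0.49 (-0.053 to 1.04, adjusted p = 0.345). The lectin gene Siglecf, which alveolar macrophages share with eosinophils, differed by 0.16 (-0.39 to 0.70). The list as a whole had a mean level of 6.17, 5.79 and 5.23 in eosinophilic mice 8, 9 and 7, against 4.59 to 4.75 in controls. All 11 differences were above 0 without mouse 7, as were 50.8% of those of all genes, with a median of log2 0.90 beside 0.012 over all genes (0.66 beside 0.0058 with 12 arrays). At unadjusted p under 0.05 in limma stood 6 of the 11, beside 16.4% of all genes. In both mice 8 and 9, 8 of the 11 lay above all controls, as 14.6% of all genes did. All genes with a control mean of 4.5 to 5 had a median of 5.04 on mouse 9. The name of the model is used here as the study's label.

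Mucus genes of the airway epithelium were among the rises. Of 15 measured members of the goblet cell and mucus list, 6 passed upward, 0 downward and 9 did not pass. Over all genes 0.451% rose and 0.883% fell without mouse 7, shares that stand beside this and every later list. The list median was log2 1.16 (0.87 with 12 arrays, where 0 passed), beside 0.012 over all genes (0.0058 with 12 arrays). Clca1, a secreted regulator of mucus in goblet cells, measured 10.01 and 11.15 in eosinophilic mice 8 and 9 and 5.88 in mouse 7, against 4.27, 4.55 and 4.41 in controls. Mice 8 and 9 stood far above every control, and mouse 7 stood above the controls by a smaller distance. This was a 72.2-fold rise (log2 6.17, SE 0.33, adjusted p = 9.28e-07), against log2 4.61 (adjusted p = 0.0547) with 12 arrays. Slc26a4, the anion exchanger pendrin, measured 9.71 and 9.46 in eosinophilic mice 8 and 9 and 5.07 in mouse 7, against 4.93, 4.57 and 5.07 in controls. Mouse 7 did not stand above the controls here. Without it the rise was 26.5-fold (log2 4.73, SE 0.33, adjusted p = 6.3e-06), and with it log2 3.22 (adjusted p = 0.0957). Agr2, a disulphide isomerase that folds mucins, measured 8.70 and 7.24 in eosinophilic mice 8 and 9 and 5.80 in mouse 7, against 4.59, 5.17 and 4.88 in controls, a rise of 8.51-fold (log2 3.09, SE 0.43, adjusted p = 0.00515, with 12 arrays log2 2.37, adjusted p = 0.0723). Those 3 genes passed in each further fit.

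The gel-forming mucins rose by less. Muc5b measured 7.83 and 8.53 in eosinophilic mice 8 and 9 and 4.70 in mouse 7, against 5.72, 6.66 and 6.07 in controls, a 4.08-fold rise (log2 2.03, SE 0.38, adjusted p = 0.0217, with 12 arrays log2 0.87, adjusted p = 0.398). Muc5ac, the mucin most tied to goblet cell change, measured 6.83 and 5.96 in eosinophilic mice 8 and 9 and 5.25 in mouse 7, against 4.52, 4.79 and 5.24 in controls, a 2.92-fold rise (log2 1.55, SE 0.31, adjusted p = 0.031, with 12 arrays log2 1.17, adjusted p = 0.109). For both, mice 8 and 9 lay above all controls, while mouse 7 was level with the highest control for Muc5ac and below all controls for Muc5b. Bpifb1, a secreted airway protein, rose 4.68-fold (log2 2.23, SE 0.37, adjusted p = 0.0147, with 12 arrays log2 0.80, adjusted p = 0.509). Calls were lost for Muc5b without eosinophilic mouse 9 or control mice 1 or 3 (adjusted p up to 0.164), Muc5ac without control mice 1 or 2 (adjusted p up to 0.169) and Bpifb1 without eosinophilic mouse 9 or control mouse 1 (adjusted p up to 0.0843). Among the members that did not pass were Spdef, the transcription factor of goblet cells (log2 0.41, -0.25 to 1.08), and the trefoil gene Tff2 (log2 1.35, 0.53 to 2.17). Of 7 membrane mucins 1 passed, Muc4 (log2 1.47, SE 0.28, adjusted p = 0.0259, with 12 arrays log2 0.92, adjusted p = 0.172), a call lost for Muc4 without eosinophilic mouse 9 or control mice 1, 2 or 3 (adjusted p up to 0.159).

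Chemokines of type 2 responses and of monocyte recruitment were also among the rises. Of 17 measured genes 8 passed upward and 0 downward, where 0.451% of all genes rose. Their median was log2 1.63 (1.41 with 12 arrays, where 1 passed). Ccl8, in mouse a ligand of the receptor Ccr8, measured 10.07 and 8.58 in eosinophilic mice 8 and 9 and 5.67 in mouse 7, against 3.55, 3.28 and 3.33 in controls. Each of the 3 eosinophilic mice lay above all controls. It rose 61.3-fold (log2 5.94, SE 0.60, adjusted p = 0.000228), with log2 4.72 (adjusted p = 0.0462) on 12 arrays. Ccl17, a ligand of Ccr4 on helper T cells, measured 9.60 and 8.78 in eosinophilic mice 8 and 9 and 5.31 in mouse 7, against 5.69, 5.85 and 6.42 in controls. Mouse 7 was below every control, while mice 8 and 9 were above them, and without mouse 7 the rise was 9.23-fold (log2 3.21, SE 0.35, adjusted p = 0.000533, with 12 arrays log2 1.91, adjusted p = 0.159). Both passed in each further fit. The second Ccr4 ligand, Ccl22, rose too (log2 2.07, SE 0.45, adjusted p = 0.0419, with 12 arrays log2 1.68, adjusted p = 0.098), a call lost for Ccl22 without eosinophilic mouse 8 or control mice 1, 2 or 3 (adjusted p up to 0.196).

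Ccl11, the eotaxin that acts on eosinophils through Ccr3, measured 9.53 and 7.32 in eosinophilic mice 8 and 9 and 6.66 in mouse 7, against 5.15, 4.89 and 5.69 in controls. All 3 eosinophilic mice exceeded the controls, and the rise was 9.06-fold (log2 3.18, SE 0.50, adjusted p = 0.0101, with 12 arrays log2 2.59, adjusted p = 0.0608). The call was lost for Ccl11 without control mice 1 or 2 (adjusted p up to 0.0635). The other eotaxin on the list, Ccl24, measured 7.83, 5.11 and 6.19 in mice 8, 9 and 7, against 4.66, 4.21 and 4.54 in controls, and did not pass (log2 2.0, SE 0.56, adjusted p = 0.105, with 12 arrays log2 1.91, adjusted p = 0.0925). The monocyte attractants Ccl7 and Ccl2, ligands of Ccr2, both rose (log2 4.43, SE 0.80, adjusted p = 0.0197, with 12 arrays log2 3.27, adjusted p = 0.107, and log2 3.43, SE 0.63, adjusted p = 0.021, with 12 arrays log2 2.89, adjusted p = 0.066). Ccl7 measured 10.47, 7.03 and 5.26 in mice 8, 9 and 7, against 4.44, 4.44 and 4.08 in controls, and Ccl2 9.69, 6.94 and 6.70 in mice 8, 9 and 7, against 5.06, 4.10 and 5.51 in controls, so that in both genes mouse 8 stood far above mouse 9. The chemokines Ccl9 (log2 3.12, SE 0.51, adjusted p = 0.0126, with 12 arrays log2 2.21, adjusted p = 0.113) and Ccl12 (log2 1.41, SE 0.32, adjusted p = 0.0478, with 12 arrays log2 1.34, adjusted p = 0.0641) completed the 8. Without some arrays the calls were lost, for Ccl7 without control mice 1, 2 or 3 (adjusted p up to 0.0846), Ccl2 without control mice 1 or 2 (adjusted p up to 0.114), Ccl9 without control mouse 2 (adjusted p up to 0.0776) and Ccl12 without eosinophilic mouse 9 or control mice 1, 2 or 3 (adjusted p up to 0.217). None of the receptor genes on the list passed, with Ccr3 at log2 0.46 (-0.21 to 1.14) and Ccr8 at 0.64 (-0.43 to 1.71).

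The list of alternatively activated macrophage and chitinase-like genes held the largest share of rises among the 41 gene lists. Of 16 measured members 9 rose, 0 fell and 7 did not pass, where 0.451% of all genes rose. Their median was log2 2.21 (1.51 with 12 arrays, where 4 passed). Retnla, a resistin-like protein of such macrophages and of airway epithelium, measured 13.03 and 12.25 in eosinophilic mice 8 and 9 and 6.87 in mouse 7, against 7.19, 7.31 and 8.13 in controls. Mouse 7 lay below all controls and mice 8 and 9 above all of them. The rise was 34.2-fold (log2 5.10, SE 0.34, adjusted p = 5.71e-06), with log2 3.17 (adjusted p = 0.128) on 12 arrays. Arg1, the arginase, measured 10.36 and 8.94 in eosinophilic mice 8 and 9 and 6.73 in mouse 7, against 4.70, 4.93 and 4.69 in controls, and all 3 eosinophilic mice exceeded the controls. It rose 29.4-fold (log2 4.88, SE 0.37, adjusted p = 1.09e-05), with log2 3.90 (adjusted p = 0.0462) on 12 arrays. Cd163, the scavenger receptor for haemoglobin bound to haptoglobin, measured 9.21 and 8.70 in eosinophilic mice 8 and 9 and 5.48 in mouse 7, against 4.51, 4.0 and 4.21 in controls, again with no overlap. It rose 26.2-fold (log2 4.71, SE 0.32, adjusted p = 5.71e-06), against log2 3.55 (adjusted p = 0.0529) on 12 arrays.

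The chitinase-like genes Chil3 and Chil4 are close copies whose signals the probes may share. Chil3 measured 11.07 and 10.80 in eosinophilic mice 8 and 9 and 8.27 in mouse 7, against 7.54, 6.79 and 6.21 in controls. Chil4 measured 6.98 and 7.67 in eosinophilic mice 8 and 9 and 5.25 in mouse 7, against 3.70, 3.84 and 4.50 in controls. In both genes the 3 eosinophilic mice lay above all controls, and the rises were 17-fold (log2 4.09, SE 0.40, adjusted p = 0.000182) and 9.95-fold (log2 3.31, SE 0.33, adjusted p = 0.000228). With 12 arrays they were log2 3.20 (adjusted p = 0.0479) and log2 2.62 (adjusted p = 0.0462). Clec10a, a galactose-binding lectin of macrophages, rose 5.26-fold (log2 2.40, SE 0.30, adjusted p = 0.00212), and log2 2.13 (adjusted p = 0.0347) with 12 arrays. The 6 genes of this list named so far passed in each further fit. Mmp12, the macrophage elastase (log2 3.18, SE 0.59, adjusted p = 0.0217, with 12 arrays log2 2.32, adjusted p = 0.111), Mrc1, the mannose receptor (log2 2.40, SE 0.44, adjusted p = 0.0217, with 12 arrays log2 1.27, adjusted p = 0.255), and Chia1, the acidic mammalian chitinase (log2 1.77, SE 0.36, adjusted p = 0.0318, with 12 arrays log2 -0.083, adjusted p = 0.959), also rose. Their calls were lost for Mmp12 without eosinophilic mouse 9 or control mice 2 or 3 (adjusted p up to 0.114), Mrc1 without eosinophilic mouse 9 or control mice 1, 2 or 3 (adjusted p up to 0.133) and Chia1 without eosinophilic mouse 9 or control mice 1, 2 or 3 (adjusted p up to 0.158). Chil1, a chitinase-like gene also made by epithelium, did not pass (log2 0.70, SE 0.35, adjusted p = 0.336, with 12 arrays log2 -1.09, adjusted p = 0.456).

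Motifs for Stat6 were looked for because IL-4 and IL-13 act through it. The search took TTCNNNNGAA, which reads the same on both strands, over windows of 250 bases before to 50 after a RefSeq start (build GRCm38.p6). The mucus, chemokine and alternatively activated macrophage lists held 23 genes that rose without mouse 7, and 15 of them had a window in the table. The motif stood in 2 of the 15, Ccl17 and Retnla, against 8.01% of the 27025 genes with a window. The 250 bases before the start are shown for these 2 genes, on the plus strand at chr8:94810203-94810452 for Ccl17, where RefSeq also lists another start, and at chr16:48842359-48842608 for Retnla, with the motif in capitals:
Ccl17: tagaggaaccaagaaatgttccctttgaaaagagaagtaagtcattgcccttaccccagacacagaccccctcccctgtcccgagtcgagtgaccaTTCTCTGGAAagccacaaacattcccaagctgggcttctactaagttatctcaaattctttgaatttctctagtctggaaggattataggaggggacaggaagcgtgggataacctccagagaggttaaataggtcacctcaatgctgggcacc
Retnla: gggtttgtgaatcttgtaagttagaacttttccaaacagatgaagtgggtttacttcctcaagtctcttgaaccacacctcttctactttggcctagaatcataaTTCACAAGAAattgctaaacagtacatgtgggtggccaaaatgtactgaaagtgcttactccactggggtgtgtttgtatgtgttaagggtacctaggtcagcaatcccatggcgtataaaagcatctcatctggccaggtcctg
The motif lies 154 to 145 bases before the start of Ccl17 and 145 to 136 bases before that of Retnla. A match is a description of these letters and no evidence of binding, and the other 13 windows hold no such letters.

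Other macrophage genes stood beside these rises. Of 12 interstitial macrophage and monocyte genes 2 rose, Folr2, the folate receptor of resident macrophages (log2 2.16, SE 0.31, adjusted p = 0.00606, with 12 arrays log2 1.65, adjusted p = 0.0758), in each further fit, and C1qb, a chain of complement C1q (log2 2.77, SE 0.45, adjusted p = 0.0117, with 12 arrays log2 1.31, adjusted p = 0.315), whose call was lost for C1qb without control mice 1 or 2 (adjusted p up to 0.0635). With 12 arrays 0 of the 12 passed. The mean level of that list was 8.18, 7.30 and 5.90 in mice 8, 9 and 7, against 6.34 to 6.85 in controls. Its part in the alternatively activated list was not tested. None of 12 alveolar macrophage genes passed in either direction (limma, 2 at unadjusted p under 0.05, against 16.4% of all genes without mouse 7), and their median was log2 -0.082 (-0.44 with 12 arrays). Fcgr2b, the inhibitory receptor for IgG, named here after its values were seen, measured 10.51 and 10.02 in eosinophilic mice 8 and 9 and 7.66 in mouse 7, against 7.20, 6.64 and 6.75 in controls. Each of the 3 eosinophilic mice lay above the controls, a 10.6-fold rise (log2 3.40, SE 0.42, adjusted p = 0.00159, with 12 arrays log2 2.54, adjusted p = 0.0769) that held in each further fit. Npl, the lyase that breaks down sialic acid, rose 5.89-fold (log2 2.56, SE 0.28, adjusted p = 0.000551, with 12 arrays log2 1.80, adjusted p = 0.0957) and Hmox1, haem oxygenase, 6.13-fold (log2 2.62, SE 0.31, adjusted p = 0.000995, with 12 arrays log2 1.77, adjusted p = 0.111), both in each further fit.

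Transcripts of the type 2 cytokines themselves did not pass. Of 17 cytokine and receptor genes 3 rose and 0 fell, where 0.451% of all genes rose. Their median was log2 0.49 (0.47 with 12 arrays, where 0 passed). Il13 measured 5.07 and 5.43 in eosinophilic mice 8 and 9 and 5.17 in mouse 7, against 4.86, 4.26 and 5.47 in controls. The groups overlapped, and the difference was log2 0.39 with an interval of -0.41 to 1.19. Il5 (0.86, -0.0049 to 1.72, adjusted p = 0.306) and Il4 (0.53, -0.37 to 1.43, adjusted p = 0.529) did not pass either. Il33, an alarmin of epithelium and other structural cells, measured 10.60 and 9.61 in eosinophilic mice 8 and 9 and 5.67 in mouse 7, against 8.20, 8.31 and 7.31 in controls. Mice 8 and 9 lay above all controls and mouse 7 below, and without mouse 7 the gene rose 4.49-fold (log2 2.17, SE 0.38, adjusted p = 0.0186). On 12 arrays the change was log2 0.69 (adjusted p = 0.582). Csf2rb, the shared chain of the receptors for IL-3, IL-5 and GM-CSF (log2 2.11, SE 0.38, adjusted p = 0.0197, with 12 arrays log2 1.21, adjusted p = 0.204), and its close copy Csf2rb2 (log2 2.18, SE 0.41, adjusted p = 0.0227, with 12 arrays log2 1.25, adjusted p = 0.207) also rose. Which copy the probes read was not tested. Leaving out arrays ended the calls, for Il33 without control mice 1, 2 or 3 (adjusted p up to 0.0655), Csf2rb without eosinophilic mouse 9 or control mice 1, 2 or 3 (adjusted p up to 0.107) and Csf2rb2 without eosinophilic mouse 9 or control mice 1, 2 or 3 (adjusted p up to 0.145).

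Of the lymphocyte, mast cell and dendritic cell genes only Il2ra passed, and over all genes 0.451% rose and 0.883% fell without mouse 7. Of 17 T cell genes 1 rose, Il2ra, the high-affinity chain of the IL-2 receptor, at 8.17 and 7.36 in eosinophilic mice 8 and 9 and 5.54 in mouse 7, against 4.96, 4.64 and 5.46 in controls. Mouse 7 stood just above the controls, and without it the rise was 6.71-fold (log2 2.75, SE 0.48, adjusted p = 0.0173, with 12 arrays log2 2.0, adjusted p = 0.109), a call lost for Il2ra without control mice 1 or 2 (adjusted p up to 0.0977). None of 16 B cell and plasma cell genes passed at adjusted p under 0.05 in limma (2 had unadjusted p under 0.05, beside 16.4% of all genes), with a median of log2 -0.24 (-0.20 with 12 arrays). The B cell gene Ms4a1 measured 5.19, 5.40 and 5.36 in mice 8, 9 and 7, against 7.52, 6.87 and 5.95 in controls, below all controls in each eosinophilic mouse but with an adjusted p of 0.143. None of 14 mast cell and basophil genes passed (limma, 2 at unadjusted p under 0.05, near the 16.4% of all genes). Their median was log2 0.39 (0.57 with 12 arrays), and the basophil protease Mcpt8 was among them at log2 0.75 (0.063 to 1.44). None of 14 dendritic cell and MHC class II genes passed (limma, 2 at unadjusted p under 0.05, also near 16.4%). Their median was log2 0.28, and with 12 arrays it had the opposite sign, log2 -0.35.

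Acute phase and antimicrobial genes rose in 5 of 14 cases, with 0 lower, where 0.451% of all genes rose. Their median was log2 1.17 (0.89 with 12 arrays, where 1 passed). Saa3, an inducible serum amyloid, measured 10.69 and 9.22 in eosinophilic mice 8 and 9 and 7.97 in mouse 7, against 5.32, 4.97 and 4.39 in controls, and all 3 eosinophilic mice exceeded the controls. It rose 33.5-fold (log2 5.06, SE 0.41, adjusted p = 2.44e-05), with log2 4.40 (adjusted p = 0.0242) on 12 arrays. Serpina3n, a serine protease inhibitor, measured 12.16 and 11.66 in eosinophilic mice 8 and 9 and 5.52 in mouse 7, against 7.71, 7.48 and 7.06 in controls. Mouse 7 lay below all controls here, and without it the rise was 22.5-fold (log2 4.49, SE 0.35, adjusted p = 1.36e-05, with 12 arrays log2 2.36, adjusted p = 0.214). Both passed in each further fit. Lcn2, which binds bacterial siderophores (log2 2.54, SE 0.46, adjusted p = 0.0197, with 12 arrays log2 0.28, adjusted p = 0.887), the metalloreductase Steap4 (log2 2.23, SE 0.43, adjusted p = 0.0247, with 12 arrays log2 1.59, adjusted p = 0.122) and the antimicrobial lectin Reg3g (log2 2.47, SE 0.51, adjusted p = 0.0318, with 12 arrays log2 1.71, adjusted p = 0.135) rose as well. Their calls were lost for Lcn2 without control mice 1 or 2 (adjusted p up to 0.107), Steap4 without control mice 1, 2 or 3 (adjusted p up to 0.133) and Reg3g without control mice 1, 2 or 3 (adjusted p up to 0.167).

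Neutrophil genes did not pass. None of 17 had an adjusted p under 0.05 (limma, 5 at unadjusted p under 0.05, beside 16.4% of all genes). Differences were above 0 for 16 of them, beside 50.8% of all genes, and the median was log2 0.99 (0.67 with 12 arrays), with mean levels of 6.72, 6.23 and 5.76 in mice 8, 9 and 7 against 5.25 to 5.72 in controls. The calcium-binding S100a9 of neutrophils measured 7.74, 7.85 and 6.75 in mice 8, 9 and 7, against 7.50, 5.59 and 5.95 in controls, with overlap (log2 1.45, SE 0.51, adjusted p = 0.185, with 12 arrays log2 1.10, adjusted p = 0.179). Of 12 neutrophil attractants and IL-17 genes 1 rose, Cxcl3, at 7.09 and 6.16 in eosinophilic mice 8 and 9 and 5.96 in mouse 7, against 4.63, 4.60 and 5.10 in controls. All 3 eosinophilic mice exceeded the controls, and the rise was 3.6-fold (log2 1.85, SE 0.31, adjusted p = 0.0149), log2 1.63 (adjusted p = 0.0479) with 12 arrays. The call was lost for Cxcl3 without control mice 1 or 2 (adjusted p up to 0.0896). None of 21 inflammasome genes passed (4 at unadjusted p under 0.05, near the 16.4% of all genes, with a median of log2 0.38, 0.40 with 12 arrays). The nearest was Il1rn, the antagonist of the IL-1 receptor, at log2 2.49 (1.18 to 3.81, adjusted p = 0.0688), and Il1b measured log2 1.30 (-0.24 to 2.84).

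Interferon-response genes rose in 3 of 9 cases, with 0 lower, where 0.451% of all genes rose. Their median was log2 1.87 (1.31 with 12 arrays, where 0 passed). Ifit1, an antiviral RNA-binding protein, measured 8.96 and 8.53 in eosinophilic mice 8 and 9 and 4.62 in mouse 7, against 5.97, 6.15 and 5.46 in controls. Mice 8 and 9 lay above all controls and mouse 7 below them, and without mouse 7 the rise was 7.41-fold (log2 2.89, SE 0.44, adjusted p = 0.00887, with 12 arrays log2 1.51, adjusted p = 0.243), which passed in each further fit. Rsad2, the antiviral protein viperin (log2 3.05, SE 0.50, adjusted p = 0.0126, with 12 arrays log2 2.01, adjusted p = 0.134), and the chemokine Cxcl10 (log2 3.33, SE 0.76, adjusted p = 0.0499, with 12 arrays log2 2.56, adjusted p = 0.115) rose too. Of 11 complement genes 1 rose, factor B, Cfb (log2 2.12, SE 0.42, adjusted p = 0.031, with 12 arrays log2 1.17, adjusted p = 0.239). Calls were lost for Rsad2 without control mice 1 or 2 (adjusted p up to 0.0686), Cxcl10 without eosinophilic mice 8 or 9 or control mice 1, 2 or 3 (adjusted p up to 0.191) and Cfb without eosinophilic mouse 9 or control mice 1, 2 or 3 (adjusted p up to 0.116).

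Genes of dividing cells leaned upward as a list, though most did not pass. Of 25 measured cell cycle genes 5 rose, 0 fell and 20 did not pass, where 0.451% of all genes rose. All 25 differences were above 0 (50.8% over all genes), with a median of log2 1.07 (0.93 with 12 arrays, where 1 passed). At unadjusted p under 0.05 in limma stood 20 of the 25, beside 16.4% of all genes. In both mice 8 and 9, 22 of the 25 lay above all controls, as 14.6% of all genes did. On quantile-normalised values 10 passed upward. Cdk1, the kinase of mitotic entry, measured 8.44 and 8.0 in eosinophilic mice 8 and 9 and 5.56 in mouse 7, against 5.19, 5.23 and 4.06 in controls. Each of the 3 eosinophilic mice lay above all controls, a 10.5-fold rise (log2 3.39, SE 0.44, adjusted p = 0.00253, with 12 arrays log2 2.50, adjusted p = 0.0814). Rrm2, a subunit of ribonucleotide reductase, measured 7.91 and 6.82 in eosinophilic mice 8 and 9 and 4.90 in mouse 7, against 5.29, 5.42 and 5.05 in controls, with mouse 7 below the controls and the other two above. It rose 4.33-fold (log2 2.11, SE 0.32, adjusted p = 0.00801, with 12 arrays log2 1.29, adjusted p = 0.162), and both genes passed in each further fit. Mki67, the proliferation marker, measured 7.78 and 8.01 in eosinophilic mice 8 and 9 and 7.33 in mouse 7, against 5.63, 5.76 and 5.56 in controls, with no overlap on any mouse. The rise was 4.73-fold (log2 2.24, SE 0.39, adjusted p = 0.017), and log2 2.06 (adjusted p = 0.0462) with 12 arrays. Top2a, a DNA topoisomerase (log2 1.99, SE 0.42, adjusted p = 0.0349, with 12 arrays log2 1.79, adjusted p = 0.0648), and the spindle protein Nusap1 (log2 1.44, SE 0.32, adjusted p = 0.0446, with 12 arrays log2 1.30, adjusted p = 0.0701) rose as well. Without some arrays the calls were lost, for Mki67 without eosinophilic mouse 9 or control mice 1, 2 or 3 (adjusted p up to 0.0912), Top2a without eosinophilic mouse 9 or control mice 1, 2 or 3 (adjusted p up to 0.162) and Nusap1 without eosinophilic mouse 9 or control mice 1, 2 or 3 (adjusted p up to 0.192).

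Of 16 matrix genes 3 rose, 0 fell and 13 did not pass, where 0.451% of all genes rose. Their median was log2 0.12 (-0.75 with 12 arrays, where 0 passed). Timp1, an inhibitor of metalloproteinases, measured 11.32 and 9.28 in eosinophilic mice 8 and 9 and 5.99 in mouse 7, against 5.76, 5.74 and 5.04 in controls, and every eosinophilic mouse exceeded the controls, mouse 7 by little. It rose 27.6-fold (log2 4.78, SE 0.49, adjusted p = 0.000263) and passed in each further fit, with log2 3.35 (adjusted p = 0.0938) on 12 arrays. Tenascin C, Tnc (log2 1.52, SE 0.33, adjusted p = 0.0419, with 12 arrays log2 0.84, adjusted p = 0.25), and thrombospondin 1, Thbs1 (log2 1.73, SE 0.39, adjusted p = 0.0463, with 12 arrays log2 -0.12, adjusted p = 0.944), rose too. Their calls were lost for Tnc without eosinophilic mouse 9 or control mice 1, 2 or 3 (adjusted p up to 0.196) and Thbs1 without eosinophilic mouse 9 or control mice 1, 2 or 3 (adjusted p up to 0.166). Aldh1a3, a retinaldehyde dehydrogenase (log2 2.48, SE 0.36, adjusted p = 0.00743, with 12 arrays log2 2.05, adjusted p = 0.0547), and Rab3il1, an exchange factor for Rab proteins (log2 2.21, SE 0.35, adjusted p = 0.0111, with 12 arrays log2 1.55, adjusted p = 0.113), also passed in each further fit and are named after their values were seen.

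**Figure D3:**
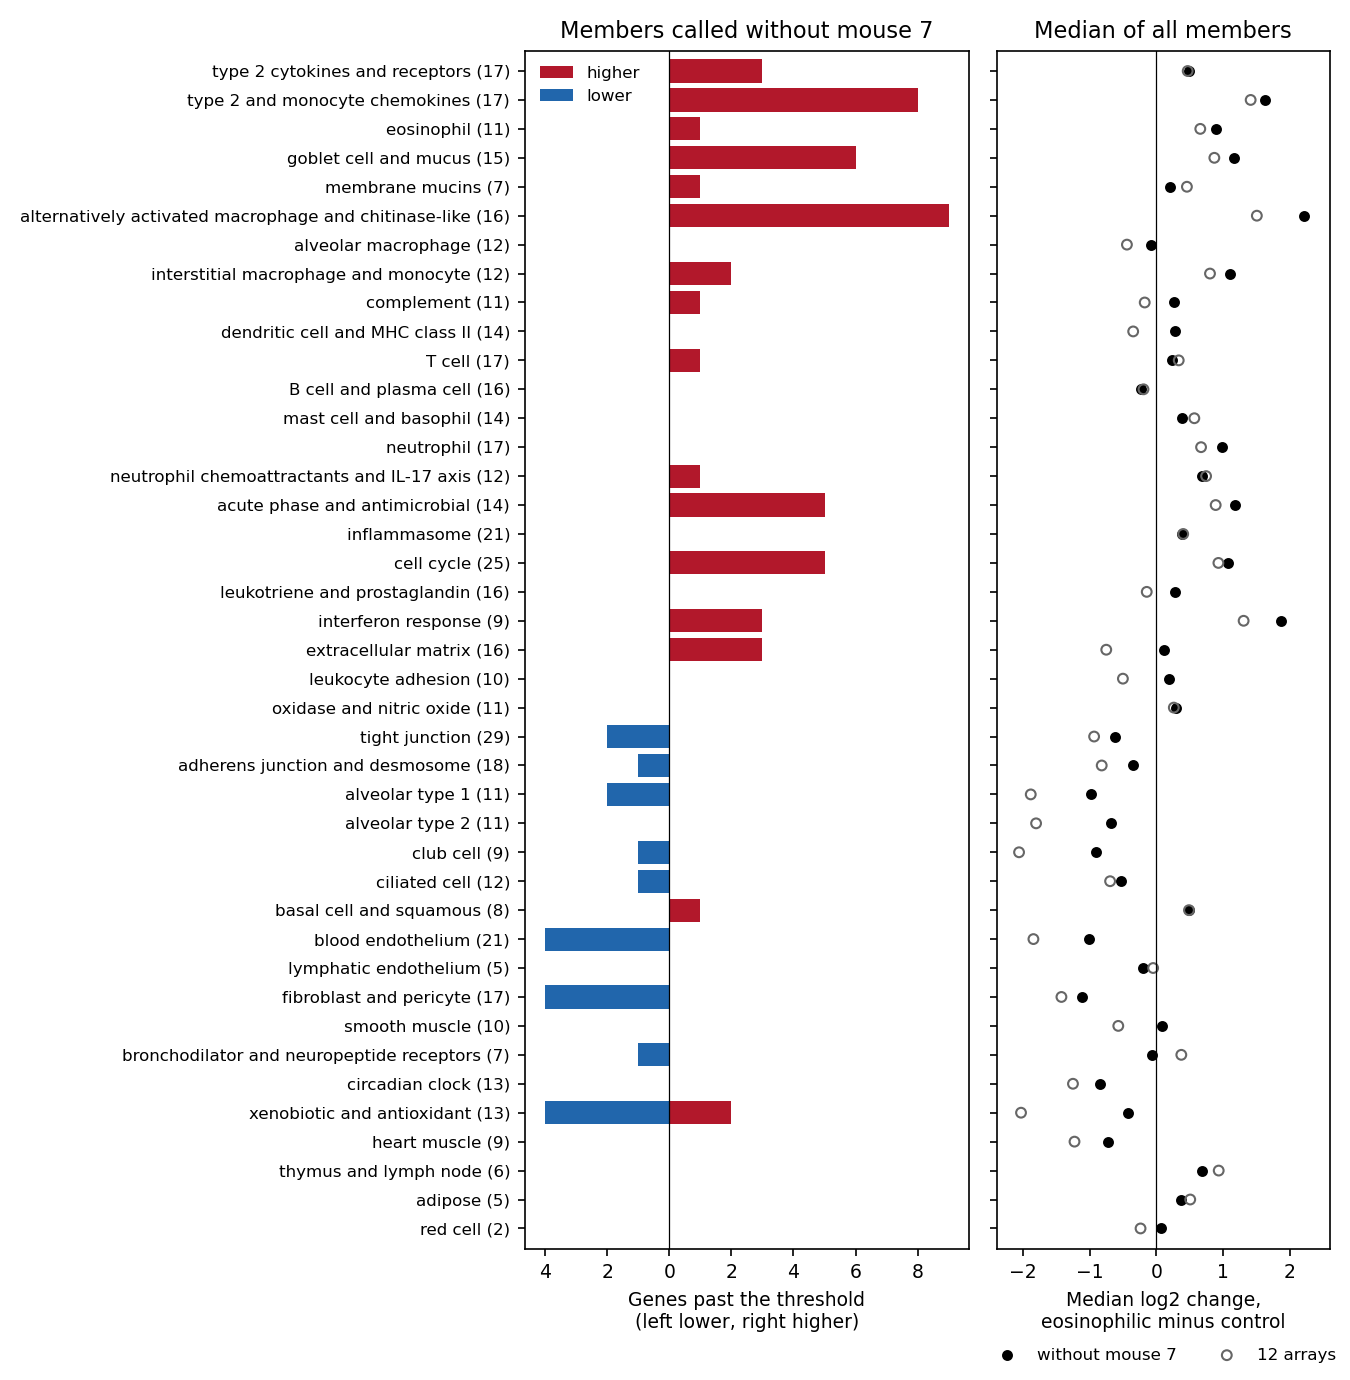
Counts of members past the threshold without mouse 7 (left panel, lower to the left and higher to the right of 0) and the median log2 change of all members (right panel, filled without mouse 7, open with 12 arrays) for the 41 gene lists, with the number of measured members in brackets. The alternatively activated macrophage and type 2 chemokine lists have 9 and 8 members higher, and the blood endothelium and fibroblast lists have 4 lower each. Open points lie left of the filled ones in the lung cell lists from alveolar type 1 to ciliated cells.

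Of the 176 falls, 20 belonged to a gene list, and of the 90 rises 52. The lists were written with earlier results of these data known, so these counts depend on the choice of lists and set no contrast between rises and falls. The falls depended more on which arrays were used. Mouse 8, whose array had a range like the controls, gave a median change of log2 -1.32 over the 176 genes that fell, and mouse 9, with its lower range, -1.78. With mouse 8 as the only eosinophilic array, 15 of the 176 falls and 53 of the 90 rises passed, and with mouse 9 alone 174 and 84 passed. In controls the genes that fell had a median deposited level of 8.08 and those that rose 5.51. The range of the array moved with the falls, and its part in them was not tested. Without all 3 arrays of low range (eosinophilic mice 7 and 9 and neutrophilic mouse 23) 94 of the 176 falls and 87 of the 90 rises passed. On quantile-normalised values, which give all arrays one distribution, 119 of the 176 falls and 88 of the 90 rises passed, and the counts were 212 rises and 172 falls in all.

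Pon1, an esterase carried on high-density lipoprotein, fell with and without mouse 7. It measured 5.07 and 5.54 in eosinophilic mice 8 and 9 and 5.35 in mouse 7, against 8.69, 8.47 and 7.98 in controls. All 3 eosinophilic mice lay below every control and close to each other. For mouse 7 this position is of little weight, since all genes with a control mean of 8 to 8.5 had a median of 5.92 on it. The gene was 8.43-fold lower (log2 -3.08, SE 0.31, adjusted p = 0.000229), and log2 -3.06 (adjusted p = 0.00305) with 12 arrays. It passed in the fit of 12 arrays and whichever of the 6 arrays was left out, which no other gene did. It was not called with 12 arrays when the fit held only the eosinophilic and control arrays. Of the 13 xenobiotic and antioxidant genes 4 fell and 2 rose. Beside Pon1 these were the monooxygenase Fmo1 (log2 -1.80, SE 0.33, adjusted p = 0.0207, with 12 arrays log2 -2.54, adjusted p = 0.0547), the epoxide hydrolase Ephx1 (log2 -1.56, SE 0.29, adjusted p = 0.0217, with 12 arrays log2 -2.17, adjusted p = 0.0529) and the aldehyde oxidase Aox3 (log2 -1.75, SE 0.36, adjusted p = 0.0327, with 12 arrays log2 -2.32, adjusted p = 0.0526) among the falls. Hmox1 and Gclc, an enzyme of glutathione synthesis (log2 1.30, SE 0.28, adjusted p = 0.0419, with 12 arrays log2 -0.12, adjusted p = 0.925), were the rises, so this list had no single direction. Leaving out arrays ended the calls, for Fmo1 without eosinophilic mouse 9 or control mice 1 or 2 (adjusted p up to 0.145), Ephx1 without eosinophilic mouse 9 or control mice 1, 2 or 3 (adjusted p up to 0.15), Aox3 without eosinophilic mouse 9 or control mice 1, 2 or 3 (adjusted p up to 0.27) and Gclc without eosinophilic mouse 9 or control mice 1, 2 or 3 (adjusted p up to 0.162).

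**Figure D4:**
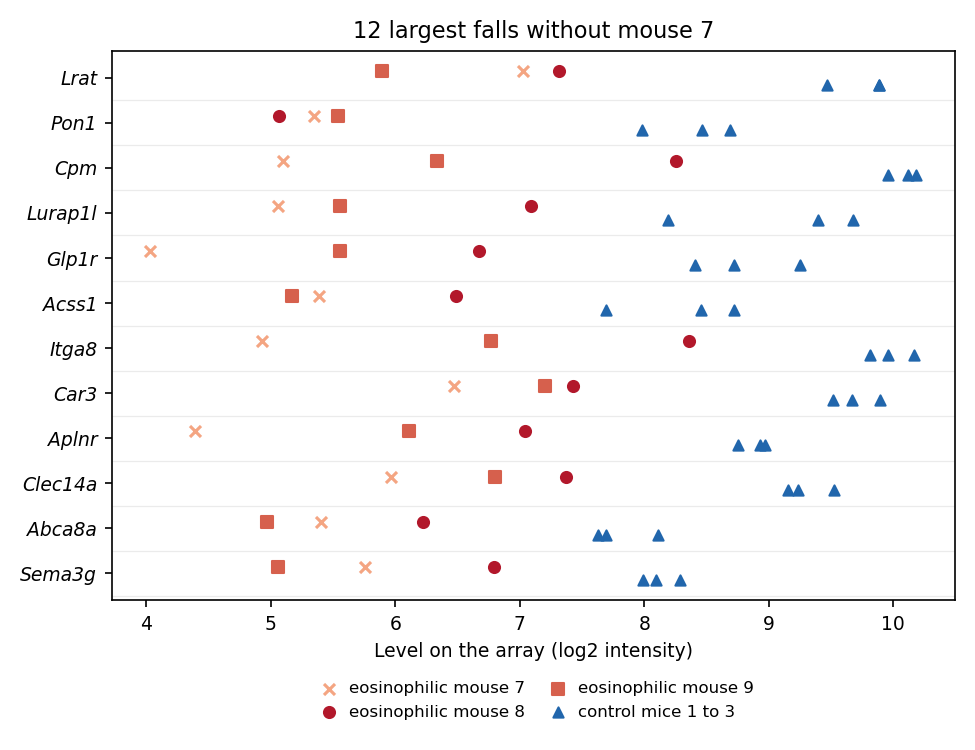
Levels (horizontal axis, log2 intensity) of the 12 genes with the largest falls without mouse 7, with 1 symbol for each eosinophilic mouse above the 3 control mice of the same gene. Mice 8 and 9 lie below all controls in each row, and for Pon1 the 3 eosinophilic mice lie between 5.07 and 5.54.

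Some genes of fibroblasts and vessels fell. Of 17 fibroblast and pericyte genes 4 fell and 0 rose, where 0.883% of all genes fell. The median was log2 -1.12 (-1.43 with 12 arrays, 3 lower). With mouse 8 as the only eosinophilic array it was -0.60, and on quantile-normalised values -0.76. Lrat, which stores retinol as esters and marks lipid-holding stellate cells and fibroblasts, measured 7.32 and 5.90 in eosinophilic mice 8 and 9 and 7.02 in mouse 7, against 9.88, 9.47 and 9.89 in controls. No eosinophilic value reached a control, and the gene was 8.82-fold lower (log2 -3.14, SE 0.43, adjusted p = 0.00457), log2 -3.0 (adjusted p = 0.0347) with 12 arrays, and passed in each further fit. Itga8, an integrin of alveolar fibroblasts and pericytes, measured 8.36 and 6.77 in eosinophilic mice 8 and 9 and 4.93 in mouse 7, against 10.17, 9.96 and 9.82 in controls. It was 5.34-fold lower (log2 -2.42, SE 0.42, adjusted p = 0.0171, with 12 arrays log2 -3.30, adjusted p = 0.0462). Fgfr4, a receptor for fibroblast growth factors (log2 -1.34, SE 0.26, adjusted p = 0.0269, with 12 arrays log2 -1.43, adjusted p = 0.0462), and the sodium channel gene Scn7a (log2 -1.47, SE 0.31, adjusted p = 0.0373, with 12 arrays log2 -2.74, adjusted p = 0.0972) also fell. Calls were lost for Itga8 without eosinophilic mouse 9 or control mice 1 or 2 (adjusted p up to 0.112), Fgfr4 without eosinophilic mouse 9 or control mice 1, 2 or 3 (adjusted p up to 0.163) and Scn7a without eosinophilic mouse 9 or control mice 1, 2 or 3 (adjusted p up to 0.242).

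Of 21 blood endothelial genes 4 fell, 0 rose and 17 did not pass, where 0.883% of all genes fell. The median was log2 -1.01 (-1.85 with 12 arrays, 3 lower). With mouse 8 as the only eosinophilic array it was -0.93, and on quantile-normalised values -0.64. Clec14a, a lectin of vessel walls, measured 7.37 and 6.80 in eosinophilic mice 8 and 9 and 5.97 in mouse 7, against 9.53, 9.16 and 9.23 in controls, below all controls in each mouse. It was 4.66-fold lower (log2 -2.22, SE 0.29, adjusted p = 0.0025), log2 -2.59 (adjusted p = 0.0345) with 12 arrays, and passed in each further fit. Myct1, another endothelial gene (log2 -1.91, SE 0.29, adjusted p = 0.00887, with 12 arrays log2 -1.70, adjusted p = 0.0462), Tek, the angiopoietin receptor (log2 -1.67, SE 0.27, adjusted p = 0.0126, with 12 arrays log2 -2.69, adjusted p = 0.0677), and Aplnr, the apelin receptor (log2 -2.31, SE 0.39, adjusted p = 0.0149, with 12 arrays log2 -3.04, adjusted p = 0.0462), fell too. Their calls were lost for Myct1 without control mouse 1 (adjusted p up to 0.0593), Tek without eosinophilic mouse 9 or control mice 1 or 2 (adjusted p up to 0.0846) and Aplnr without eosinophilic mouse 9 or control mice 1 or 2 (adjusted p up to 0.117). Over the whole list the mean level was 8.71, 8.43 and 5.91 in mice 8, 9 and 7, against 9.45 to 9.66 in controls, and 18 of the 21 genes lay below all controls in both mice 8 and 9, as 19.2% of all genes did.

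Glp1r, the receptor of the incretin GLP-1, stood out among receptors. It measured 6.67 and 5.56 in eosinophilic mice 8 and 9 and 4.03 in mouse 7, against 8.72, 9.25 and 8.41 in controls, and all eosinophilic values lay below all controls. It was 6.4-fold lower (log2 -2.68, SE 0.38, adjusted p = 0.00587), log2 -3.37 (adjusted p = 0.0373) with 12 arrays, and passed in each further fit. The other 6 measured bronchodilator and neuropeptide receptor genes did not pass, the nearest being the muscarinic receptor Chrm2 (log2 -1.25, SE 0.36, adjusted p = 0.113, with 12 arrays log2 -1.51, adjusted p = 0.0736). Nbeal1, a neurobeachin-like gene (log2 -1.98, SE 0.28, adjusted p = 0.00587, with 12 arrays log2 -2.41, adjusted p = 0.0347), and Ecm2, a matrix protein gene (log2 -1.73, SE 0.25, adjusted p = 0.00587, with 12 arrays log2 -1.22, adjusted p = 0.107), named after their values were seen, passed in each further fit. Ecm2 measured 4.45 and 4.40 in eosinophilic mice 8 and 9 and 5.96 in mouse 7, against 6.06, 6.18 and 6.24 in controls, and mouse 7 came close to the controls. The remaining genes of the 12 largest falls passed in both fits but not whichever array was left out. These were the membrane carboxypeptidase gene Cpm (log2 -2.80, SE 0.57, adjusted p = 0.0318, with 12 arrays log2 -3.53, adjusted p = 0.0462), Lurap1l (log2 -2.76, SE 0.55, adjusted p = 0.031, with 12 arrays log2 -3.19, adjusted p = 0.0462) and the mitochondrial acetyl-CoA synthetase gene Acss1 (log2 -2.46, SE 0.49, adjusted p = 0.031, with 12 arrays log2 -2.61, adjusted p = 0.0462). The carbonic anhydrase gene Car3 (log2 -2.38, SE 0.42, adjusted p = 0.0173, with 12 arrays log2 -2.66, adjusted p = 0.0373), the transporter gene Abca8a (log2 -2.22, SE 0.36, adjusted p = 0.0126, with 12 arrays log2 -2.28, adjusted p = 0.0347) and the semaphorin gene Sema3g (log2 -2.20, SE 0.45, adjusted p = 0.0318, with 12 arrays log2 -2.26, adjusted p = 0.0462) were the others, beside Itga8 and Aplnr. Without some arrays the calls were lost, for Cpm without eosinophilic mouse 9 or control mice 1, 2 or 3 (adjusted p up to 0.284), Lurap1l without eosinophilic mouse 9 or control mice 1 or 2 (adjusted p up to 0.266), Acss1 without eosinophilic mouse 9 or control mice 1 or 2 (adjusted p up to 0.259), Car3 without eosinophilic mouse 9 or control mice 1 or 2 (adjusted p up to 0.0964), Abca8a without eosinophilic mouse 9 or control mice 1 or 2 (adjusted p up to 0.0879) and Sema3g without eosinophilic mouse 9 or control mice 1, 2 or 3 (adjusted p up to 0.267).

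Few epithelial identity genes passed, though most differences in the alveolar, club and ciliated lists were below 0. Of 11 alveolar type 1 genes 2 fell, the anchoring protein gene Akap5 (log2 -2.14, SE 0.34, adjusted p = 0.0111, with 12 arrays log2 -2.81, adjusted p = 0.0462) and caveolin, Cav1 (log2 -1.72, SE 0.36, adjusted p = 0.0349, with 12 arrays log2 -2.23, adjusted p = 0.051), and the list median was log2 -0.98 (-1.89 with 12 arrays, where Akap5 passed). None of 11 alveolar type 2 genes passed (limma, 4 at unadjusted p under 0.05, beside 16.4% of all genes), and their median was log2 -0.68 (-1.81 with 12 arrays). With mouse 8 as the only eosinophilic array the medians were nearer to no change, -0.70 for alveolar type 1 and -0.33 for type 2. On quantile-normalised values they were -0.60 and -0.33. All 11 alveolar type 1 differences were below 0, beside 49.2% over all genes, and 7 had unadjusted p under 0.05 (limma, beside 16.4%). Of 9 club cell genes 1 fell, Scgb3a2, a secretoglobin, at 5.76 and 5.27 in eosinophilic mice 8 and 9 and 5.07 in mouse 7, against 7.72, 7.08 and 7.49 in controls. Each eosinophilic mouse lay below all controls, and the gene was 3.77-fold lower (log2 -1.91, SE 0.31, adjusted p = 0.0115), and log2 -2.06 (adjusted p = 0.0347) with 12 arrays. Of the 9 club cell differences 8 were below 0, and 7 had unadjusted p under 0.05 (limma). The club cell median was log2 -0.90 (-2.06 with 12 arrays). It was -0.28 with mouse 8 as the only eosinophilic array and -0.46 on quantile-normalised values. Of 12 ciliated cell genes 1 fell, Sntn, of the ciliary tip (log2 -1.45, SE 0.27, adjusted p = 0.0232, with 12 arrays log2 -1.66, adjusted p = 0.0462). Of the 12 differences 9 were below 0, and 6 had unadjusted p under 0.05 (limma). The ciliated cell median was log2 -0.54 (-0.70 with 12 arrays). It was -0.57 with mouse 8 as the only eosinophilic array and -0.44 on quantile-normalised values. Of 8 basal and squamous genes 1 rose, Sprr1a, a precursor of the cornified envelope (log2 1.65, SE 0.36, adjusted p = 0.0427, with 12 arrays log2 1.59, adjusted p = 0.0588). Leaving out arrays ended the calls, for Akap5 without eosinophilic mouse 9 or control mice 1 or 2 (adjusted p up to 0.074), Cav1 without eosinophilic mouse 9 or control mice 1, 2 or 3 (adjusted p up to 0.27), Scgb3a2 without eosinophilic mouse 9 or control mouse 1 (adjusted p up to 0.0799), Sntn without eosinophilic mouse 9 or control mice 1, 2 or 3 (adjusted p up to 0.142) and Sprr1a without eosinophilic mouse 8 or control mice 1, 2 or 3 (adjusted p up to 0.182).

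Some junction genes fell, and over all genes 0.883% fell without mouse 7. Of 29 tight junction genes 2 fell, the polarity scaffold gene Mpp5, also called Pals1 (log2 -1.27, SE 0.25, adjusted p = 0.031, with 12 arrays log2 -1.84, adjusted p = 0.0588), and the scaffold gene Magi3 (log2 -1.43, SE 0.32, adjusted p = 0.0478, with 12 arrays log2 -1.82, adjusted p = 0.0547), and 28 differences were below 0, beside 49.2% over all genes, with a median of log2 -0.62 (-0.94 with 12 arrays). With mouse 8 as the only eosinophilic array the median was -0.30, and on quantile-normalised values -0.34. The claudin genes did not pass, for example Cldn18 of alveolar epithelium (log2 -1.33, -2.17 to -0.50). Of 18 adherens junction and desmosome genes 1 fell, Nectin3, at 7.30 and 6.77 in eosinophilic mice 8 and 9 and 6.29 in mouse 7, against 8.79, 8.83 and 8.67 in controls. All eosinophilic values lay below all controls, and the gene was 3.31-fold lower (log2 -1.73, SE 0.29, adjusted p = 0.0138), and log2 -1.97 (adjusted p = 0.0353) with 12 arrays. Calls were lost for Mpp5 without eosinophilic mouse 9 or control mice 1, 2 or 3 (adjusted p up to 0.19), Magi3 without eosinophilic mouse 9 or control mice 1, 2 or 3 (adjusted p up to 0.22) and Nectin3 without eosinophilic mouse 9 or control mice 1 or 2 (adjusted p up to 0.0895).

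Lists for tissues that dissection can bring along gave no call. None of 9 heart muscle, 6 thymus and lymph node, 5 adipose or 2 red cell genes passed (limma, with 4, 2, 0 and 0 at unadjusted p under 0.05, beside 16.4% of all genes). The 4 of 9 heart muscle genes are a larger share than that. The heart muscle genes had mean levels of 7.14, 6.64 and 6.14 in mice 8, 9 and 7, against 7.11 to 7.60 in controls. The part of heart tissue in other falls was not tested. None of 13 clock genes passed, though 7 had unadjusted p under 0.05 (limma), a larger share than 16.4%. Of the 13 differences 11 were below 0, beside 49.2% over all genes, with a median of log2 -0.84 (-1.25 with 12 arrays). The median was -0.36 with mouse 8 as the only eosinophilic array and -0.49 on quantile-normalised values. Nr1d1, the repressor Rev-erb alpha, came near the threshold (log2 -1.84, SE 0.42, adjusted p = 0.0526, with 12 arrays log2 -3.09, adjusted p = 0.0828). The time of day of collection was not given in the sources used here. None of 5 lymphatic, 10 smooth muscle, 16 leukotriene and prostaglandin, 10 leukocyte adhesion or 11 oxidase and nitric oxide genes passed (0, 2, 2, 2 and 3 at unadjusted p under 0.05, beside the same 16.4%).

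The eosinophilic lung was then set against the mixed and the neutrophilic models in the fit of 11 arrays. It differed from mixed lung in 10 genes, 0.0502% of those tested, with 4 higher (0.0201%) and 6 lower (0.0301%). It differed from neutrophilic lung in 38 genes, 0.191%, with 10 higher (0.0502%) and 28 lower (0.14%). These comparisons share the eosinophilic arrays with each other and with the comparison to PBS. With 12 arrays 0 genes were higher and 1 lower than in mixed lung (limma), and 1 was higher and 22 lower than in neutrophilic lung. Leaving out mouse 8 raised the counts to 703 higher and 1249 lower than in mixed lung and to 210 and 449 for neutrophilic lung. Leaving out neutrophilic mouse 23, whose array had a low range, gave 25 higher and 191 lower than in neutrophilic lung.

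Cd163 was higher in eosinophilic lung than in either intranasal model. It measured 9.21, 8.70 and 5.48 in eosinophilic mice 8, 9 and 7, against 5.58, 6.22 and 5.87 in mixed mice and 5.63, 4.85 and 5.34 in neutrophilic mice, with controls at 4.51, 4.0 and 4.21. Mice 8 and 9 lay above all other mice, and mouse 7 did not. The difference was log2 3.06, SE 0.32, adjusted p = 0.0037 from mixed and log2 3.68, SE 0.32, adjusted p = 0.000267 from neutrophilic lung, and both passed whichever further array was left out. With 12 arrays neither passed, at log2 1.91 (adjusted p = 0.295) and log2 2.52 (adjusted p = 0.343). Npl measured 8.10, 7.42 and 5.48 in eosinophilic mice 8, 9 and 7, against 5.18, 5.50 and 5.78 in mixed and 5.49, 5.44 and 5.56 in neutrophilic mice, so mice 8 and 9 again stood alone (log2 2.27, SE 0.28, adjusted p = 0.0109, and log2 2.26, SE 0.28, adjusted p = 0.00538). Anln, the cytokinesis protein anillin, measured 6.18, 6.88 and 6.03 in eosinophilic mice 8, 9 and 7, against 4.38, 4.33 and 4.60 in mixed, 4.64, 4.89 and 4.48 in neutrophilic and 4.59, 4.59 and 4.87 in control mice. Here all 3 eosinophilic mice, mouse 7 included, were above the 9 others (log2 2.10, SE 0.28, adjusted p = 0.0185, and log2 1.86, SE 0.28, adjusted p = 0.0149). All genes with a control mean of 4.5 to 5 had a median of 5.38 on mouse 7. Rrm2 was the other gene higher than in mixed lung (log2 2.02, SE 0.32, adjusted p = 0.044), and it was also higher than in neutrophilic lung (log2 1.88, SE 0.32, adjusted p = 0.0294). Against mixed lung, Npl lost the call without mixed mouse 16, Rrm2 without any 1 of the mixed mice and Anln without any 1 of the mixed mice or eosinophilic mouse 9. Against neutrophilic lung, Npl passed in each further fit, Anln lost the call without eosinophilic mouse 9 or neutrophilic mouse 25, and Rrm2 without neutrophilic mouse 24 or 25. With 12 arrays Anln passed against neutrophilic lung (log2 1.69 (adjusted p = 0.0466)), and Npl and Rrm2 passed in neither comparison.

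**Figure D5:**
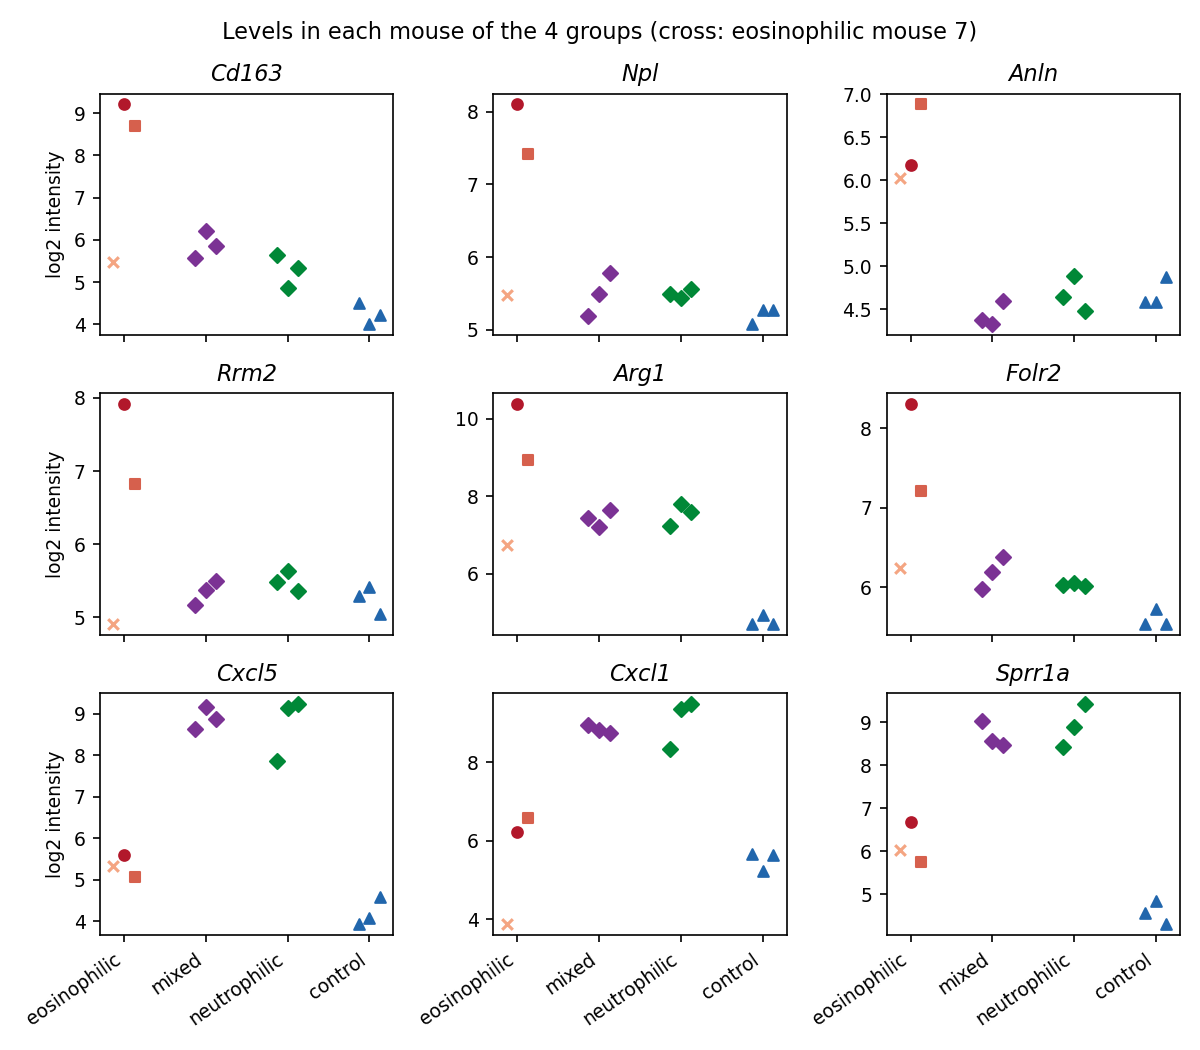
Levels of 9 genes (vertical axis, log2 intensity) in each mouse of the eosinophilic, mixed, neutrophilic and control groups, with a cross for eosinophilic mouse 7. Cd163, Npl, Rrm2 and Folr2 are high in eosinophilic mice 8 and 9 alone, Anln in all 3 eosinophilic mice, and Cxcl5, Cxcl1 and Sprr1a are high in the mixed and neutrophilic mice.

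Against neutrophilic lung, further genes were higher. Arg1 measured 10.36, 8.94 and 6.73 in eosinophilic mice 8, 9 and 7, against 7.45, 7.19 and 7.65 in mixed and 7.23, 7.80 and 7.59 in neutrophilic mice, which exceeded the controls too (4.70, 4.93 and 4.69). It was log2 2.11, SE 0.37, adjusted p = 0.0338 against neutrophilic lung, and the difference from mixed lung was of like size but did not pass (log2 2.23, SE 0.37, adjusted p = 0.0571). Cdk1 (log2 2.51, SE 0.44, adjusted p = 0.0369), Folr2 (log2 1.72, SE 0.31, adjusted p = 0.0461) and the splicing factor gene Cdc5l (log2 2.82, SE 0.45, adjusted p = 0.0191) were higher too. Kcnj13, a potassium channel gene, measured 6.25, 6.59 and 5.66 in eosinophilic mice 8, 9 and 7, against 4.65, 4.37 and 4.65 in neutrophilic and 7.59, 7.75 and 7.43 in control mice. It fell against PBS (log2 -1.18, SE 0.26, adjusted p = 0.0476, with 12 arrays log2 -1.43, adjusted p = 0.0526), a call lost for Kcnj13 without eosinophilic mouse 9 or control mice 1, 2 or 3 (adjusted p up to 0.23), and was yet higher than in neutrophilic lung (log2 1.86, SE 0.26, adjusted p = 0.00993). Cckar, the cholecystokinin receptor gene, was higher than in neutrophilic lung (log2 1.67, SE 0.30, adjusted p = 0.0476) and did not pass against PBS (log2 -1.07, SE 0.30, adjusted p = 0.108, with 12 arrays log2 -1.53, adjusted p = 0.0797). None of these 6 calls against neutrophilic lung passed with 12 arrays. All 6 were lost without neutrophilic mouse 24. Those of Arg1, Folr2, Cdk1 and Cckar were also lost without neutrophilic mouse 25, and those of Cdk1, Cdc5l, Kcnj13 and Cckar without eosinophilic mouse 9.

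Of 12 neutrophil attractants and IL-17 genes 2, Cxcl5 and Cxcl1, were lower than in mixed and than in neutrophilic lung, and 0 were higher. The list had a median of log2 -0.85 against mixed and -1.07 against neutrophilic lung, beside 0.015 and 0.019 over all genes. Cxcl5 measured 5.59, 5.07 and 5.32 in eosinophilic mice 8, 9 and 7, against 8.63, 9.15 and 8.86 in mixed, 7.86, 9.14 and 9.22 in neutrophilic and 3.93, 4.09 and 4.59 in control mice. Cxcl5, made by epithelium, draws in neutrophils. The eosinophilic values lay above the controls but below every intranasal mouse (log2 -3.55, SE 0.40, adjusted p = 0.00418, and log2 -3.41, SE 0.40, adjusted p = 0.00374), and with 12 arrays the differences were log2 -3.56 (adjusted p = 0.00805) and log2 -3.41 (adjusted p = 0.0116). Against PBS Cxcl5 did not pass (limma, log2 1.13, adjusted p = 0.187). All genes with a control mean of 4 to 4.5 had medians of 5.22 on mouse 7 and 4.71 on mouse 9. Cxcl1, another ligand of Cxcr2, measured 6.24, 6.60 and 3.87 in eosinophilic mice 8, 9 and 7, against 8.96, 8.82 and 8.74 in mixed and 8.34, 9.37 and 9.48 in neutrophilic mice (log2 -2.42, SE 0.34, adjusted p = 0.0187, and log2 -2.64, SE 0.34, adjusted p = 0.00538). Cxcl1 did not pass against PBS either (limma, log2 0.90, adjusted p = 0.214). Sprr1a measured 6.69, 5.74 and 6.04 in eosinophilic mice 8, 9 and 7, against 9.03, 8.55 and 8.47 in mixed and 8.43, 8.88 and 9.41 in neutrophilic mice. It was lower than in both (log2 -2.47, SE 0.36, adjusted p = 0.0268, and log2 -2.69, SE 0.36, adjusted p = 0.008), although it rose against PBS. The vault RNA gene Vaultrc5 was lower as well (log2 -1.81, SE 0.29, adjusted p = 0.0496, and log2 -3.29, SE 0.29, adjusted p = 0.000267), and Snora74a, a small nucleolar RNA, and Gm10590, a predicted gene, both named after their values were seen, completed the 6 genes lower than in mixed lung. Against mixed lung Cxcl5 lost the call without mixed mouse 16, and Cxcl1, Sprr1a and Vaultrc5 without any 1 of the mixed mice or eosinophilic mouse 9. Against neutrophilic lung Cxcl5, Cxcl1 and Vaultrc5 passed in each further fit, and Sprr1a lost the call without eosinophilic mouse 9. All 4 passed against neutrophilic lung with 12 arrays.

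Among the 28 genes lower than in neutrophilic lung, 16 carried names of small nucleolar, Cajal body or micro RNAs. A variable segment of the immunoglobulin kappa light chain measured 5.48, 4.37 and 5.21 in eosinophilic mice 8, 9 and 7, against 10.59, 12.31 and 12.77 in neutrophilic mice, a difference of log2 -6.97, SE 0.97, adjusted p = 0.00886. Mixed mice spread widely, at 6.95, 9.86 and 11.64, and the difference from them did not pass (log2 -4.56, SE 0.97, adjusted p = 0.224). Ighm, the IgM heavy chain, measured 5.94, 5.41 and 6.82 in eosinophilic mice 8, 9 and 7, against 7.67, 10.90 and 9.33 in neutrophilic mice (log2 -3.62, SE 0.66, adjusted p = 0.0467). Osm, the cytokine oncostatin M (log2 -2.22, SE 0.34, adjusted p = 0.0149), and Ccl19, a chemokine of lymphoid tissue (log2 -1.82, SE 0.32, adjusted p = 0.0391), were lower too. The small RNA genes Rpph1, Rprl1, Rprl2 and n-R5s136 made up the rest, at log2 differences of -1.97, -1.74, -1.90 and -2.32. The kappa segment and Rprl1 lost the call without eosinophilic mouse 9, and Ighm, Osm, Ccl19, Rpph1, Rprl2 and n-R5s136 without an eosinophilic mouse and without neutrophilic mouse 24 or 25. With 12 arrays the kappa segment (log2 -6.87 (adjusted p = 0.013)), Osm (log2 -2.25 (adjusted p = 0.0162)), Rprl1 and Rprl2 passed, and Ighm, Ccl19, Rpph1 and n-R5s136 did not.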

How the data were processed

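Per the submitters' processing notes, the authors made the deposited log2 values with RMA in Affymetrix Expression Console, with no version given. The log base was taken from the range of the values. Labelling started from 300 ng of total RNA, per the labels. RMA normalises quantiles, so the unequal ranges of the deposited arrays remain unexplained here. Of 34760 probe sets, 21640 had a single symbol in the platform annotation, 1321 several, and 11799 were not listed. For each of 19937 genes, 954 of them with several probe sets, the brightest on average across the 12 arrays was kept.

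Fits used limma 3.58.1 in R 4.3.3 (a mean for each of 4 groups, eBayes without trend, two-sided, Benjamini-Hochberg over all genes, adjusted p under 0.05). Further fits left out 1 array each, and a group with 1 array left was assumed to vary like the others. P-values measure the spread between mice pooled over the groups. No 2 arrays were identical (highest correlation 0.983). On simulated data over 19937 genes, 74 of 100 changes of log2 2 and 99 of 100 of log2 4 were recovered without mouse 7, and 77 and 98 with 12 arrays. Of 19737 genes simulated without a change, 33 were called without mouse 7 and 64 with 12 arrays, a larger part of the simulated calls than the threshold of 0.05 allows for.

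The comparison, gene lists and settings were chosen with earlier results of these data known. Named genes were the 12 largest non-overlapping rises and falls in each comparison, the 5 best members of every list by p, and any member of 9 topic lists. Promoters came from RefSeq tables of GRCm38.p6.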

Additional observations from a re-analysis of the deposited data

Results flagged for a closer look

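Probe sets without a single gene symbol were outside the comparisons above. Over all 34760 probe sets without mouse 7, 1 probe set annotated to several genes was higher in eosinophilic than in control lung. Among the probe sets that the annotation did not list, 5 were higher and 1 was lower. These were noted because they carry a signal outside the genes tested.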

How the results depend on the processing

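Counts of genes past the threshold depended on the settings, in higher then lower genes. For eosinophilic against control lung with 12 arrays, 15 and 84 became 27 and 210 with a filter on dim genes, 3 and 11 with arrays centred on their median, and 36 and 10 on quantile-normalised values. They became 48 and 237 with limma's trend and robust options, 0 and 0 with only eosinophilic and control arrays, 0 and 1 over all probe sets, and 294 and 138 without eosinophilic mice 7 and 9 and neutrophilic mouse 23. Leaving out 1 array gave 0 to 3558 and 1 to 4706. Without mouse 7, 90 and 176 became 33 and 5 with only eosinophilic and control arrays (fewer samples) and 34 and 22 over all probe sets (more tests), and the rises became 212 on quantile-normalised values. Leaving out 1 more array gave 27 to 1276 and 6 to 2129. Against mixed lung, 4 and 6 became 0 and 1 with 12 arrays, and the higher genes 10 on quantile-normalised values, with ranges of 1 to 703 and 0 to 1249 when 1 array was left out. Against neutrophilic lung, 10 and 28 became 40 and 82 on quantile-normalised values, the higher genes became 1 with 12 arrays, and the ranges were 3 to 210 and 8 to 449. The causes of the other changes were not tested. Of 1607 recomputed differences from control for 124 genes in the text, 8 changed sign. With 12 arrays these were Cdc5l (log2 -1.19), Chia1 (-0.083), Chil1 (-1.09), Gclc (-0.12), Ighm (0.0045), Siglecf (-0.37) and Thbs1 (-0.12), and with quantile normalisation Rprl1 (0.16). Another 360 kept their sign and lost the call, and 9 gained one. No paired analysis was possible because mouse numbers are not shared between groups. The narrow signal range of mouse 7, the few eosinophilic arrays and the dependence on single control arrays limit these results.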
